A study of Mus musculus with 4 samples.

Results

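The cardiac genes described here encode 3 proteins of the thin filament and 1 light chain of the thick filament. They are Actc1 (locus XLOC_018613), Tnnt2 (XLOC_000482), Tpm1 (XLOC_033149) and Myl2 (XLOC_023982). They were chosen by locus name and are 4 of the 35299 loci in the deposited count table. All 4 named genes were found again when the exon and intron lengths of the deposited models were matched to annotated transcripts, and 1 of the loci, that of Tnnt2, also held the models of a second gene, Lad1.

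The tissue was heart of C57BL/6J mice aged 12 weeks that had a sham operation 2 weeks earlier, and no other group was present. Poly(A)-selected RNA was sequenced as paired reads of 100 bases, in 4 libraries that the series design calls biological replicates, and the tissue came from the region that would border an infarct. In 1 field, the free-text description, replicate 4 is placed at an infarct border with no mention of sham, although all its other labels call it sham. The table heads the libraries 3RL, 7LR, 8R and 12RL, and these names are not tied to replicate numbers, so it is not known which of them is replicate 4.

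In striated muscle, actin filaments slide past myosin filaments. Tropomyosin lies along the actin filament and, with the troponin complex of troponin T, I and C, makes the binding of myosin depend on calcium. Actc1 is the actin of adult cardiac muscle, Tpm1 the main tropomyosin, Tnnt2 the cardiac troponin T that fastens the troponin complex to tropomyosin, and Myl2 the regulatory light chain of ventricular myosin. Mutations in the human genes for all 4 proteins are known causes of cardiomyopathy.

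Library depth ran from 108345923 to 160670654 reads recovered from the table. Values are normalised read counts, that is, reads divided by the authors' size factor for the library and not by gene length. The 4 loci together took 2.66% ± 0.156 of all counts (SD, n = 4), and 3.84% ± 0.298 of the counts off the mitochondrial chromosome. Summed over 7 cardiomyocyte markers, the 4 genes included, the libraries held 9830173.8 to 10921200.3 normalised counts. The sums were 15764.5 to 19052.4 for 3 atrial markers, 20233.6 to 27683.8 for 4 smooth muscle markers and 166844 to 236184 for 4 markers of skeletal muscle. They were 84465.9 to 103608 for 4 fibroblast markers, 79215.4 to 110676 for 3 endothelial markers and 40135.9 to 50414.6 for 3 macrophage markers. Single loci carry several of these sums. The merged locus of Myh6 and Myh7 had a mean of 4932751.7 in the cardiomyocyte list, and Dcn had 52829.8 in the fibroblast list. Ckm, which heart muscle also expresses, had a mean of 166171 in the skeletal list, where Acta1 had 31545.7 and the more restricted Mylpf and Tnnt3 had 104 and 50.4. Nppa had a mean of 17712.7 in the atrial list, where Myl4 and Myl7 had 248 and 36.2. The locus of Cd68 in the macrophage list, which also holds 6 other genes such as Eif4a1, had a mean of 36946.9, and Adgre1 had 1460.97. No matched marker was at 0 in any library, and the part of other cell types in the results below was not tested. In such tissue, fewer cells of a type and less RNA per cell cannot be told apart.

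Actc1, the cardiac actin, had the highest read count of the 4 genes. It lies on the minus strand of mm9 at chr2:113873025-113878547 and had 1 UCSC model of 7 exons and 1390 spliced bases, with no model assembled beside it. Its normalised read count was 1521799.7 (3RL), 1177408.1 (7LR), 1640532.3 (8R) and 1215872.1 (12RL). Libraries 3RL and 8R were high and 7LR and 12RL were low, with a gap between the pairs. The mean was 1388903.1 ± 227778 (SD, n = 4), and only 2 nuclear loci had more counts. The promoter is shown because an element known to control cardiac actin genes, the CArG box bound by serum response factor, was found in it. The CArG box, in capitals, starts 47 bases before the RefSeq start of the gene, in the 250 bases before that start (GRCm38.p6, minus strand, chr2:114052876-114053125).
Actc1 promoter: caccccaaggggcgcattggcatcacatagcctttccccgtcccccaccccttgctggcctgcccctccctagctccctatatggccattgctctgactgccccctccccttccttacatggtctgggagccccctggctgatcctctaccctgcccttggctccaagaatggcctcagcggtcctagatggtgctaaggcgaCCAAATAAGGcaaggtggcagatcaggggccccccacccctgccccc
A CArG box on either strand was present in 1.47% of the 32851 promoter windows of the same length. The other patterns searched on both strands were TATAAA, the E box CANNTG, the M-CAT element CATTCC, the core GATAA of sites for Gata factors and the MEF2 site. None of them matched in the Actc1 window.

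Tpm1, the tropomyosin, had fewer counts and the smallest relative spread of the 4. It lies on the minus strand at chr9:66870400-66897020 of mm9. Its normalised read count was 971451 (3RL), 891137 (7LR), 1059599.5 (8R) and 1001502.0 (12RL), with a mean of 980922 ± 70154.2 (SD, n = 4). The values lay close together, with 8R at the top and 7LR at the bottom. The locus had 5 UCSC models with 4 to 10 exons and no assembled model. Of 13 distinct exons in these models, 3 were in every one. The models had 3 end sites and 2 start sites, so the read count of the locus sums transcripts with different last exons.

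Tropomyosin genes are known to make muscle and non-muscle forms by choosing between alternative exons. A pair of such exons is shown because they occupy the same place, exon 6, in models that are otherwise of the same length. Each has 76 bases, all coding, and they were identical at 43 positions (56.6%). In mm9 they lie at chr9:66879758-66879833, in model uc009qfq.1, and at chr9:66880273-66880348, in model uc009qfr.1. The sequences below are from GRCm38 (minus strand, chr9:67031951-67032026 and chr9:67032466-67032541), and capitals mark the positions at which they differ.
exon 6 of uc009qfq.1: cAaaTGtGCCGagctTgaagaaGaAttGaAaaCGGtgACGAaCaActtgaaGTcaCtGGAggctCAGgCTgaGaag
exon 6 of uc009qfr.1: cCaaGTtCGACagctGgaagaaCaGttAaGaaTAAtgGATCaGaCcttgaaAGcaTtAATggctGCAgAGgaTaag
The table holds 1 value per locus, so how much of the Tpm1 RNA carried either exon was not measured. In the 250 bases before the RefSeq start of Tpm1 (GRCm38.p6, minus strand, chr9:67049214-67049463), 1 match to CATTCC was found on the other strand, 56 bases before the start, and is in capitals below. This element is known from muscle promoters and was present in 12.6% of all windows.
Tpm1 promoter: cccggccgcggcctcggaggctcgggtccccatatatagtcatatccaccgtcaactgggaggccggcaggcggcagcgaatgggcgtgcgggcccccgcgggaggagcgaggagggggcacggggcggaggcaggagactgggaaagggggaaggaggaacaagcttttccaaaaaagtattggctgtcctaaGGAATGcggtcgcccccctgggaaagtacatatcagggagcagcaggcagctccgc
The E box had 1 match here, 198 bases before the start, and was present in 66.2% of all windows. No other pattern matched.

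Tnnt2, cardiac troponin T, shared its locus with its upstream neighbour. The locus spans chr1:137715175-137755463 of mm9 on the plus strand and held 15 models, 8 from UCSC and 7 assembled. The first 2 models, 1 from UCSC and 1 assembled, matched Lad1, the gene of the basement membrane protein ladinin, and the start of the locus is that of Lad1. The UCSC models of Lad1 and Tnnt2 lie 3063 bases apart. An assembled model with a first exon at chr1:137729446-137729541, inside the last exon of Lad1, runs on through Tnnt2 and joins them into 1 locus. Reads of both genes were thus counted together. The part of Lad1 in the count was not measured.

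The normalised read count of the Tnnt2 locus was 1119996.3 (3RL), 1085704.4 (7LR), 1357997.7 (8R) and 1232614.8 (12RL). Library 8R was highest and 12RL next, while 3RL and 7LR were low and close to each other. The mean was 1199078.3 ± 123136 (SD, n = 4). Assembly extended the gene at its 3′ end: 5 assembled models ended 6626 bases beyond the last UCSC end, with a last exon of 6860 bases in place of 234. The exons of the 7 UCSC models of Tnnt2 covered 1169 bases, which was 8.49% of the 13771 exon bases of all models at the locus.

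Cardiac troponin T is known to be made in several forms that differ near the amino end through small exons, of which exon 5 is known for its use in fetal heart. Exons 4 and 5 are shown, in capitals, each after the end of the exon before it in model uc007cty.1 (GRCm38, plus strand, chr1:135842015-135842026 for exon 4 and chr1:135843785-135843814 for exon 5).
exon 4: ggaacaggaagAAGCTGTGGAAG
exon 5: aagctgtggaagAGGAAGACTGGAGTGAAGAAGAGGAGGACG
Exon 4, of 12 bases and all coding, was in 3 of the 5 UCSC models that span it and in 6 models of any kind. Exon 5, of 30 bases and all coding, was an exon of its own in 1 of the 6 UCSC models that reach it. Another UCSC model started with an exon of 37 bases that ends where exon 5 ends. No assembled model had an exon 5. These are counts of models and not of reads, and the share of Tnnt2 RNA with either exon was not measured.

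The Tnnt2 promoter is shown because the CATTCC element was defined in the cardiac troponin T promoter of the chicken, and because Gata4, which binds sites with the core GATAA, is a factor of cardiac muscle. In the 250 bases before the RefSeq start of Tnnt2 nearest to the GENCODE start (GRCm38.p6, plus strand, chr1:135836084-135836333), CATTCC starts 27 bases before the start. GATAA was found on the other strand, 245 and 166 bases before it. These 3 matches are in capitals.
Tnnt2 promoter: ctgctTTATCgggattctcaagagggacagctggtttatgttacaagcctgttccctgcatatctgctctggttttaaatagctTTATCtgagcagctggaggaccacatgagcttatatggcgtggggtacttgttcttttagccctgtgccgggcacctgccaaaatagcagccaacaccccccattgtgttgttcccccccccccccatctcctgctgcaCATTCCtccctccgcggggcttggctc
GATAA was present in 22.6% of all windows. The window also held 4 matches to CANNTG, at 223, 157, 145 and 94 bases before the start, and none of the matches overlapped another.

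Myl2, the ventricular regulatory light chain, had a mean read count close to that of Tpm1. Its locus spans chr5:122543066-122563256 of mm9 on the plus strand. The single UCSC model has 7 exons and 633 spliced bases, and its part in the count of the locus was not measured. The normalised read count was 962660 (3RL), 903645 (7LR), 1130915.0 (8R) and 923710 (12RL), with a mean of 980233 ± 103400 (SD, n = 4). Library 8R stood above the other 3, which lay close together.

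Assembly added 8 models to Myl2, of which 4 shared splice sites with the UCSC model and 4 lay wholly upstream of it. The assembled models started 7923, 7701, 7681, 7666 or 1084 bases before the UCSC start. RefSeq also places starts of Myl2 far upstream, 8256 and 7791 bases before the UCSC start. The exons of the UCSC model made up 7.33% of the 8641 exon bases at the locus. No promoter of Myl2 is shown, because the RefSeq windows lie at those upstream starts. The nearer of them held TATAAA on the other strand, 216 bases before the start, and TATAAA was present in 12.4% of all windows. CANNTG had 2 matches in this upstream window, 130 and 48 bases before its start. The MEF2 site, found in 2.92% of all windows, was in none of the 4 windows. For Myl2 this covers the upstream window alone, and the bases just before its UCSC start were not searched.

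**Figure D1:**
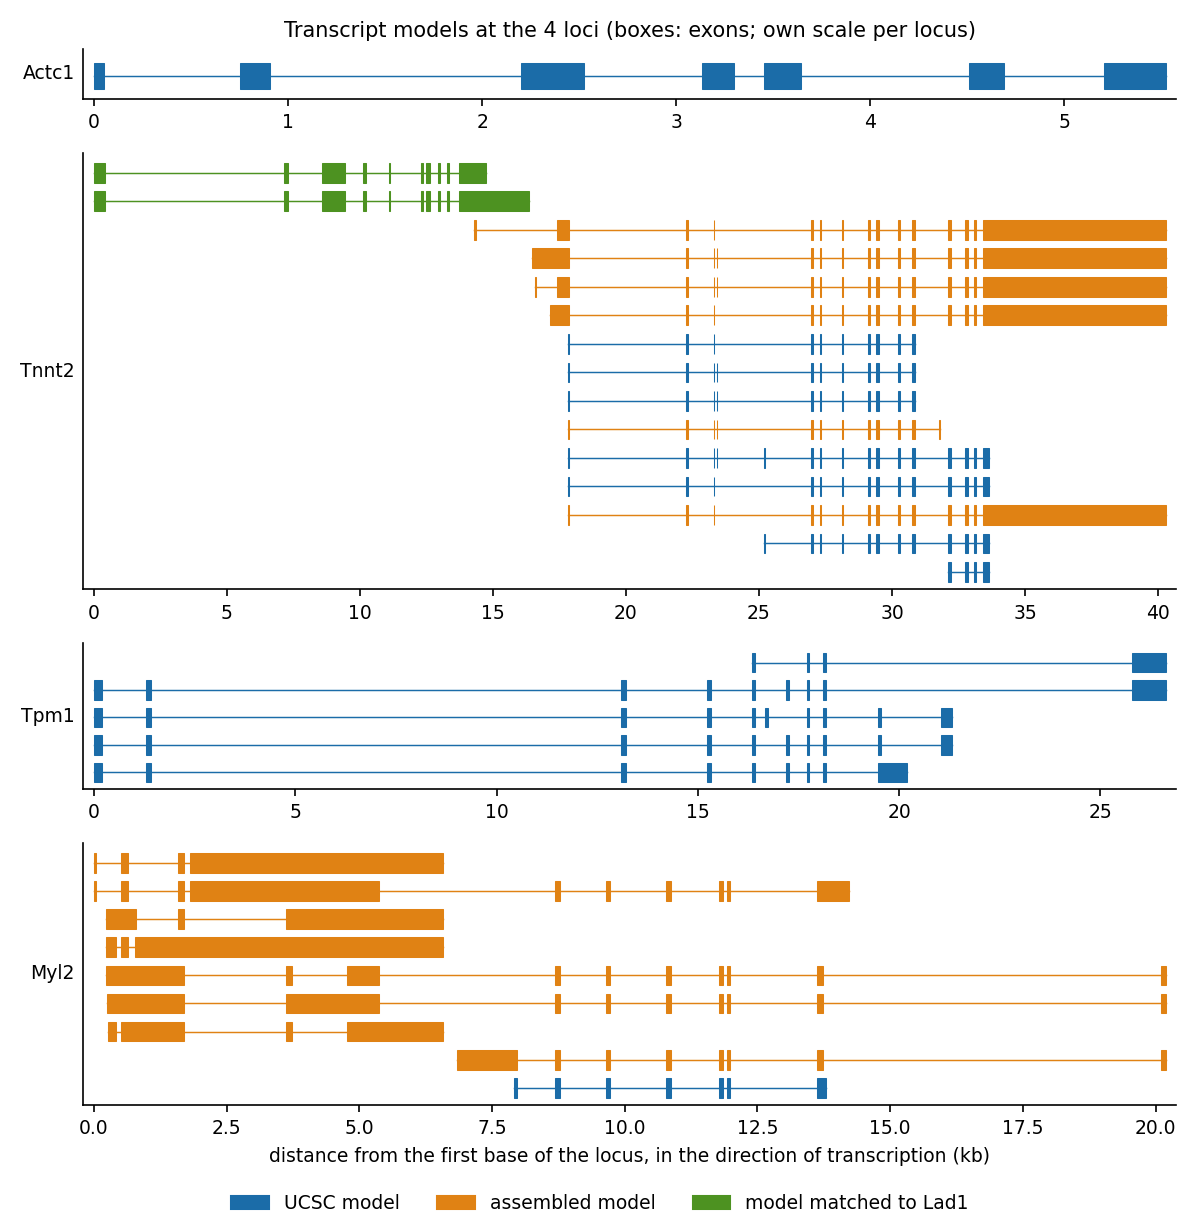
Transcript models at the 4 loci, with distance from the first base of the locus in kb in the direction of transcription on the x axis and 1 row per model. Boxes are exons, blue for UCSC models, orange for assembled models and green for the 2 models matched to Lad1. Assembled models carry the long last exons of Tnnt2 and the upstream exons of Myl2, while Actc1 and Tpm1 have UCSC models alone.

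**Figure D2:**
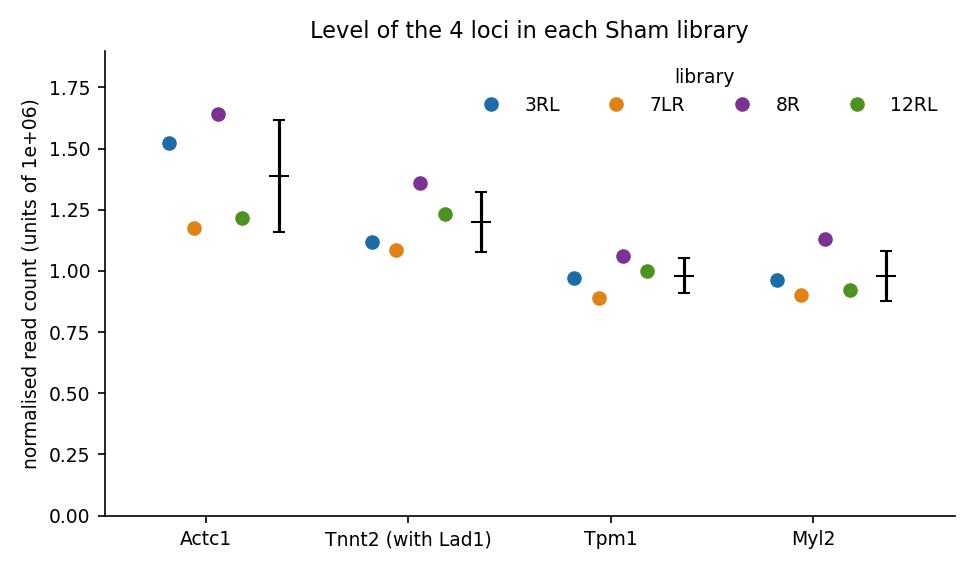
Normalised read count (y axis, from 0, in units of 1e+06) of the 4 loci in each library, 1 point per library, with the mean and SD (n = 4) as a bar to the right of each set. Library 8R is highest and 7LR lowest at all 4 loci under the authors' scaling, an order that was not kept with equal table totals.

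The spread between libraries was widest for Actc1. The coefficient of variation (CV, SD over mean) was 16.4% for Actc1, 10.5% for Myl2, 10.3% for Tnnt2 and 7.15% for Tpm1. Counting error contributed at most 0.131% to the CV of any of them in any library. Among the 500 other loci nearest in rank of mean, whose means were 34714 or more and whose median CV was 8.96%, the CV of Actc1 stood at percentile 87.8. In the same window, but for the gene itself, that of Myl2 stood at percentile 62.4, that of Tnnt2 at 60.6 and that of Tpm1 at 32.8. Among loci of like spliced length whose mean reached 1000, the percentile of the CV was 90.0 for Actc1 and 33.7 for Tpm1. It stood lower than above for Tnnt2, at 52.4, and for Myl2, at 32.6. At 0 of the 4 genes did 1 library stand apart from the other 3 by Dixon's ratio at its 95% critical value, against 4.6% of the 14424 loci whose mean reached 50. The CV is sensitive to the scaling: with equal table totals it was 13.1% for Actc1, 5.91% for Myl2, 5.45% for Tnnt2 and 2.91% for Tpm1. Without 8R the CV of Myl2 was 3.23% and that of Tnnt2 6.71%, and without 7LR that of Tpm1 was 4.43%.

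All 4 genes were highest in 8R and lowest in 7LR under the authors' scaling, TMM and the median of ratios, but with equal table totals Actc1 was highest in 3RL and lowest in 12RL, Tnnt2 lowest in 3RL, Tpm1 highest in 12RL and Myl2 lowest in 12RL. With equal totals off the mitochondrial chromosome, 8R stayed highest for all 4, and Actc1 and Myl2 were lowest in 12RL. Much of this order was shared with other loci. Of the 9122 loci whose mean reached 1000, 46.5% were highest in 8R, 34.8% were lowest in 7LR and 23.6% were both. Of the 1485 of them with a longest UCSC model in the length range of the 4 genes, 79.1% were highest in 8R, 57.7% lowest in 7LR and 49.2% both.

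Under the authors' scaling, loci with short transcripts lay high in 8R and low in 7LR, with median log2 deviations of 0.19 and -0.14 for spliced lengths above 500 and up to 1000 bases. The deviations of the 4 genes are therefore set beside the median of about 500 loci nearest in spliced length. The deviation is the log2 value of a library minus the mean log2 of the 4 libraries. Myl2 lay near its length class, with its largest difference, -0.054, and the opposite sign in 3RL: its deviations were -0.02, -0.11, 0.21 and -0.08 in 3RL, 7LR, 8R and 12RL, against 0.03, -0.15, 0.22 and -0.09. Those of Tpm1 were -0.01, -0.14, 0.11 and 0.03 in the same order, against 0.03, -0.09, 0.12 and -0.07, so that the signs differed in 3RL and 12RL. Actc1 went further than its class in every library and in the same direction. Its deviations were 0.15 (3RL), -0.22 (7LR), 0.25 (8R) and -0.18 (12RL), against 0.04, -0.10, 0.14 and -0.08. Tnnt2, taken with the length of its own longest UCSC model, also had the opposite sign to its class in 3RL and 12RL, by wider margins. It deviated by -0.09 in 3RL against 0.04, and by 0.05 in 12RL against -0.08. What lies behind the trend with length was not tested.

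**Figure D3:**
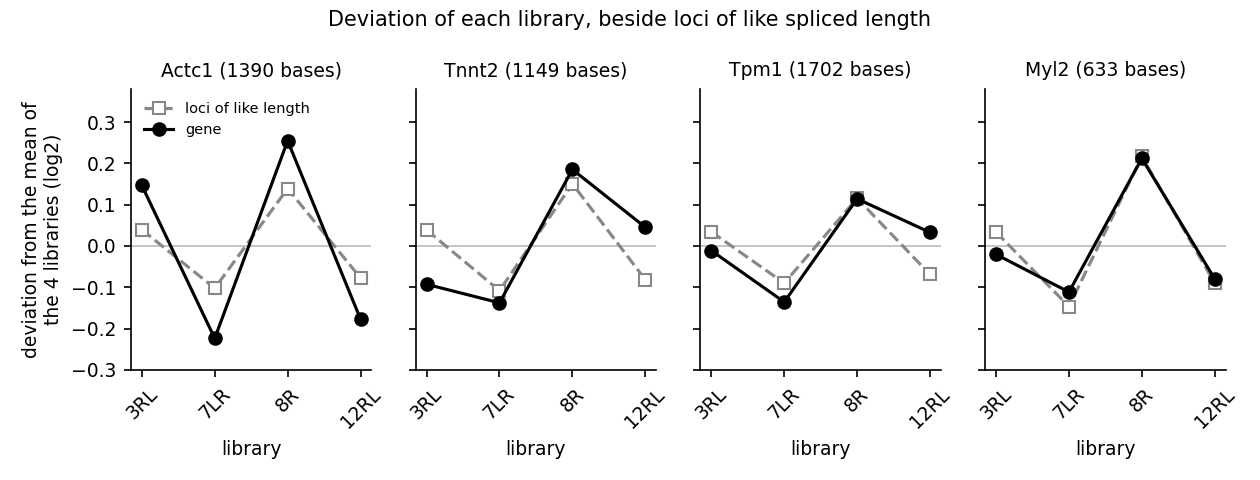
Log2 value of a library minus the mean of all 4 (y axis) for the 4 genes (filled circles) and the median of about 500 loci of like spliced length (open squares), with the libraries on the x axis. Actc1 deviates further than loci of like length in all 4 libraries, while the largest difference of Myl2 from them is -0.054, in 3RL.

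Within a library, the genes kept their ratios to different degrees. Over all 4 libraries the ratio of Tnnt2 to Tpm1 spread least, but not without 12RL. Size factors cancel in such a ratio. The count of Tnnt2 was 1.15 (3RL), 1.22 (7LR), 1.28 (8R) and 1.23 (12RL) times that of Tpm1, with an SD of the log2 ratio of 0.06. Among 9121 other loci, which were not matched for length, Tpm1 ranked 240 in likeness to Tnnt2 by this SD, and Tnnt2 ranked 889 in likeness to Tpm1. The protein products of this pair bind each other on the thin filament, and whether that bears on the ratio was not tested.

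Ratios with Myl2 were nearly as steady. The count of Tpm1 over that of Myl2 was 1.01 (3RL), 0.986 (7LR), 0.937 (8R) and 1.08 (12RL), and the SD of the log2 ratio was 0.09. That of Tnnt2 over Myl2 was 1.16, 1.20, 1.20 and 1.33 in the same order, and its SD was also 0.09. In both of these ratios 12RL was the highest library. Without it the SD was 0.05 for Tpm1 over Myl2 and 0.03 for Tnnt2 over Myl2, both below the 0.08 of Tnnt2 over Tpm1, so the order of these 3 pairs rests on 12RL.

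Actc1 kept its ratios to the other 3 genes less well over all 4 libraries. Its count over that of Tnnt2 was 1.36 (3RL), 1.08 (7LR), 1.21 (8R) and 0.986 (12RL), so that its excess over Tnnt2 was lost in 12RL. Over Tpm1 it was 1.57, 1.32, 1.55 and 1.21, and over Myl2 1.58, 1.30, 1.45 and 1.32, in the same order. The SD of the log2 ratio was 0.20 with Tnnt2, 0.18 with Tpm1 and 0.13 with Myl2. Without 3RL that of Actc1 over Myl2 was 0.0855, below those of Tpm1 over Myl2 (0.107) and Tnnt2 over Myl2 (0.0877). For comparison, the median SD of the log2 ratio to all 9121 loci was 0.22 for Actc1, 0.16 for Tnnt2, 0.15 for Myl2 and 0.13 for Tpm1. The ratios within the set were thus below the median of each gene's own background, other than those of Actc1 seen from Tnnt2 and Tpm1, whose SDs of 0.20 and 0.18 were above it. This background holds loci of any spliced length, and deviations between libraries varied with length. How the ratios stand beside loci of like length was not tested.

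**Figure D4:**
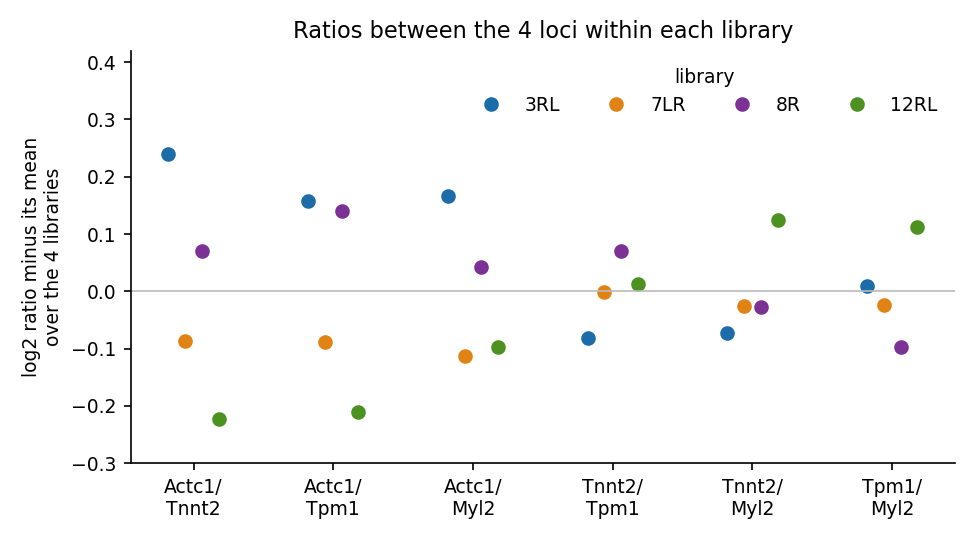
Log2 ratio of the normalised read counts of each pair of genes, minus its mean over the 4 libraries (y axis), for the 6 pairs on the x axis, 1 point per library. Over all 4 libraries the 3 pairs with Actc1 spread most and Tnnt2 over Tpm1 least, with an SD of 0.06, but without 12RL Tnnt2 over Tpm1 spreads more than Tnnt2 over Myl2 and Tpm1 over Myl2, and without 3RL Actc1 over Myl2 spreads less than these.

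Per kb of the longest UCSC model, Myl2 was the most abundant of the 4, a place that it lost with some other lengths. Here the normalised read count was divided by the length of the longest UCSC model. The level per kb of Myl2 was 1520789.5 (3RL), 1427559.6 (7LR), 1786595.6 (8R) and 1459257.8 (12RL), with a mean of 1548550.6 ± 163348 (SD, n = 4). All 4 of these values lay above those of the other genes. Actc1 had 999211 ± 163869 per kb and Tpm1 had 576335 ± 41218.7 per kb, and these 2 genes did not overlap.

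The place of Tnnt2 depended on the model. The longest UCSC model at its locus, of 2992 bases, is that of Lad1, and gave 400761 ± 41155.2 per kb. The longest UCSC model of Tnnt2 itself, of 1149 bases and taken up after the data were seen, gave 1043584.2 ± 107168 per kb. With that length, Tnnt2 and Actc1 were neighbours that did not differ beyond their spread: the log2 ratio of Actc1 over Tnnt2 per kb was -0.07 ± 0.20 (SD, n = 4), and Actc1 was higher in 1 of 4 libraries (exact two-sided sign-flip test, p = 0.625, adjusted over 6 pairs 0.625).

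With the longest UCSC model of each gene, the other 5 pairs kept 1 direction in all 4 libraries. The log2 ratio per kb was -1.42 ± 0.09 (SD, n = 4) for Tpm1 over Myl2. It was -0.64 ± 0.13 for Actc1 over Myl2 and -0.57 ± 0.09 for Tnnt2 over Myl2. It was 0.78 ± 0.18 for Actc1 over Tpm1 and 0.85 ± 0.06 for Tnnt2 over Tpm1. Each of these 5 gave p = 0.13 in the exact two-sided sign-flip test, 0.15 after adjustment over the 6 pairs, and 0.13 is the smallest p that 4 libraries allow. With the Lad1 length, all 6 pairs gave p = 0.13 (exact test, adjusted 0.13), the log2 ratio of Actc1 over Tnnt2 was 1.31 and that of Tnnt2 over Tpm1 was -0.53. Such a ratio also rests on which transcripts are present: per base of all exons at the locus, assembled ones included, Myl2 fell to 113440 per kb, below Actc1 and Tpm1. Where all 4 libraries share 1 direction, the exact two-sided sign-flip test gives its smallest value whatever the spread between them. The direction in turn rests on the length used, as for Actc1 over Tnnt2 and Tnnt2 over Tpm1. The results of the exact test therefore cover direction in these 4 libraries at a given length, and not the choice of length.

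Actc1, Tpm1 and Myl2 each made up nearly all of the level of the genes counted for their family in this tissue. The genes counted were a chosen list and not every member of a family. Actc1 held 94.1% ± 0.972 (SD, n = 4) of the summed level per kb of 5 actin genes. Acta1, the skeletal actin, followed with 1.99% ± 0.634 and Actb with 1.97% ± 0.298. These shares were nearly equal, and Actb was above Acta1 in 7LR (2.20% against 1.42%) and 12RL (1.54% against 1.53%). The ratio of Actc1 to Acta1 per kb was 42.1 (3RL), 66.2 (7LR), 33.5 (8R) and 62.4 (12RL). The ratio was lowest in 8R and 3RL, the libraries in which Acta1 was highest. Acta1 spread more widely than Actc1, with normalised read counts of 37296.5, 18332.6, 50458.9 and 20094.8 in the same order. The coding sequences of Actc1 and Acta1 were identical at 976 of 1131 positions (86.3%), but no stretch of 100 coding bases, the length of a read, was identical between them. The longest run shared by the longest coding sequence of each gene had 29 bases. It is shown to give the scale of that likeness (Actc1 in GRCm38, minus strand, within chr2:114047469-114052031).
shared run: ctggctcccagcaccatgaagatcaagat
In 12 pairs of a gene and a relative in its family, 0 windows of 100 coding bases were shared. Runs were compared only between the longest coding sequence of each gene, and the longest shared run had 35 bases, between Tpm1 and Tpm2.

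Tpm1 held 97.8% ± 0.297 of the level per kb of 4 tropomyosin genes. Tpm4 followed with 1.18% ± 0.174 and Tpm3 with 0.769% ± 0.109. Over Tpm4, Tpm1 was 76.1-fold (3RL), 77.1-fold (7LR), 77.6-fold (8R) and 107-fold (12RL). The ratio was thus nearly the same in 3 libraries and higher in 12RL.

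Myl2 held 99.8% ± 0.0358 of the level per kb of 4 regulatory light chains. Most of the remainder was Myl9, the light chain of smooth muscle, with 0.206% ± 0.0348. Myl7, the atrial counterpart of Myl2, had normalised read counts of 11.9 (3RL), 12.5 (7LR), 2.27 (8R) and 118 (12RL). Library 12RL was far above the others, and the value in 8R rests on only 2 reads. The ratio of Myl2 to Myl7 per kb was 7280.81 in 12RL, 67236.1 in 7LR and 75168.1 in 3RL, and none is given for 8R. The relatives of Tnnt2 in skeletal muscle were not measured on an equal footing, since Tnnt1 shares a locus with Tnni3, while Tnnt3 had 50.4 ± 18.6 normalised counts (SD, n = 4).

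Beside these 4, 25 other genes of the thin and thick filament were listed, of which 23 had a locus of their own or shared, at 21 loci in all. With the longest UCSC model of each gene, the level per kb of the merged locus of the myosin heavy chains Myh6 and Myh7 was 816951 ± 67805.3. This lay between Actc1 and Tpm1, but Tpm1 had 931550 with its shortest model. That of Myl3, the essential light chain of ventricular myosin, was 775411 ± 70739.1. Troponin C (Tnnc1), the calcium sensor of the complex, had 334106 ± 45649, and the locus of troponin I (Tnni3, merged with Tnnt1 and Dnaaf3) had 641190 ± 64856.1. Actn2, the actinin of the Z disc, had 122008 ± 7398.56, and all remaining loci were lower.

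Of the 21 other filament loci, 12 were highest in 8R, 10 were lowest in 7LR and 7 were both under the authors' scaling, beside 4 of the 4 genes. Of the 16 whose mean reached 1000, the counts were 10, 8 and 6, where 46.5%, 34.8% and 23.6% of all loci of that mean did so. Their median CV was 14.7%, against 8.61% over those 9122 loci. The 16 were not matched for length. Of the loci of that mean in the length range of the 4 genes, 79.1% were highest in 8R, 57.7% lowest in 7LR and 49.2% both. Titin and the myosin heavy chain locus, both with long transcripts, did not share the order of the 4 genes. Ttn had 706034, 1092007.7, 701734 and 1105122.9 normalised counts in 3RL, 7LR, 8R and 12RL, so that it was low where Actc1 was high. The list includes genes that other cell types express, such as Acta2 and Actb.

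**Figure D5:**
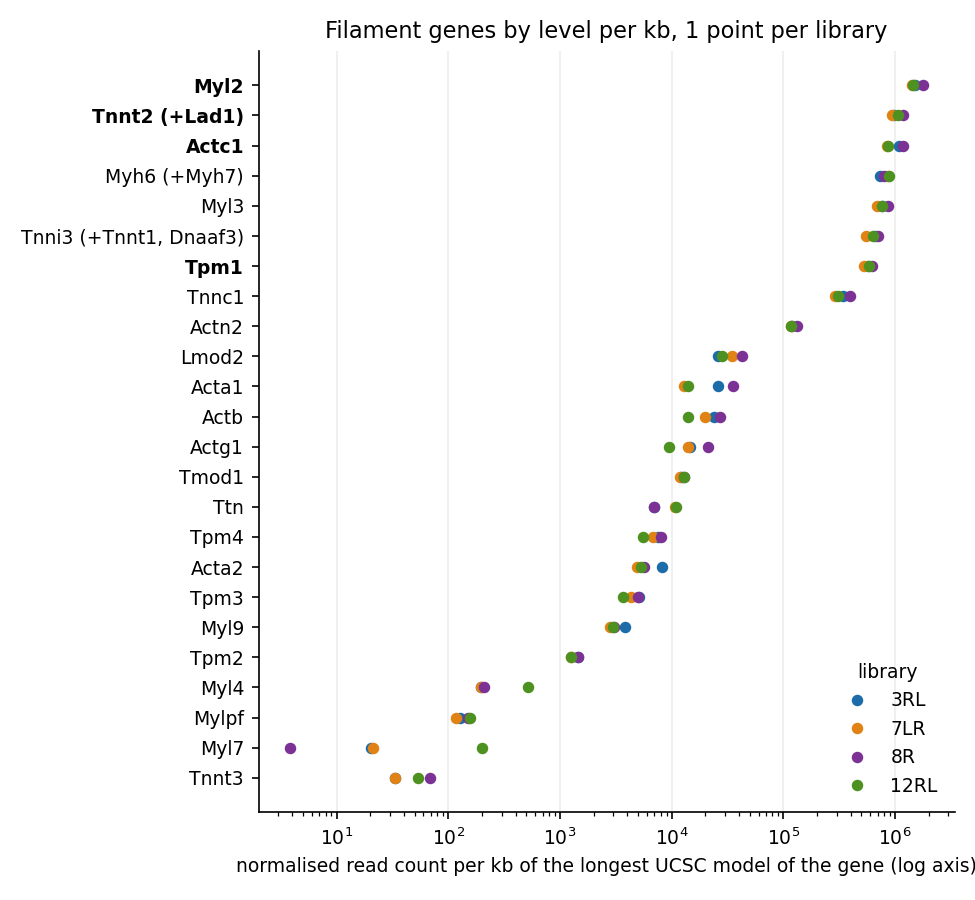
Normalised read count per kb of the longest UCSC model of the gene (x axis, log scale) for the 4 genes (bold) and the other filament genes with 1 locus, 1 point per library. Myl2, Tnnt2 and Actc1 are the highest 3 entries and Tpm1 lies at 576335 per kb, while Myl7 differs most between libraries. Tnni1, which was at 0 in 12RL, is not drawn.

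Loci with the most similar profile were found for each gene by the SD over libraries of the log2 ratio to it, among loci whose mean reached 1000. Over 4 libraries many of the 9121 loci come close by this measure: 7.05% had an SD within 0.1 for Actc1, 15.6% for Tnnt2, 28.5% for Myl2 and 31.9% for Tpm1. Nearest to Actc1 was Gadd45a, with an SD of 0.01 and normalised counts of 1538.65, 1184.36, 1629.1 and 1231.39 in 3RL, 7LR, 8R and 12RL (mm9 chr6:66985090-66987401). It was followed by Cmtm7 (chr9:114665954-114691362), Igfbp4 (chr11:98901367-98915698), Cox19 (chr5:139810825-139821210) and the merged locus of Dnajc9 and Mrps16 (chr14:21202619-21213161).

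Nearest to Tnnt2 was Dnaja2 (chr8:88061539-88079267), with 38048.5, 36925.9, 45841 and 41835.6 normalised counts in the same order. Pgam5 (chr5:110685738-110698901), Mapk10 (chr5:103336967-103640353) and Akirin2 (chr4:34496782-34516651) followed, with an unnamed locus at chrM:1149-3703. Nearest to Tpm1 was Pcp4l1 (chr1:173102755-173127166), with 26589.2, 24041.4, 28757.7 and 27235.6 normalised counts. Gatad1 (chr5:3637007-3648012), Gde1 (chr7:125832072-125849252), Smyd1 (chr6:71163366-71272227), a muscle gene of sarcomere assembly, and Thoc3 (chr13:54556996-54570180) followed. Nearest to Myl2 was Dnajc21 (chr15:10376521-10400328), with 6353.96, 6019.75, 7478.17 and 6097.02 normalised counts. Rnf7 (chr9:96369437-96379014), Lsm3 (chr6:91466029-91472614), an unnamed locus at chr12:109417948-109441567 and Plpbp (chr8:28152013-28166604) followed. When 1 library was left out, between 0 and 2 of the 5 nearest loci of a gene remained among its 5 nearest, so these lists rest on single libraries. None of the 20 places was taken by another filament gene of the list.

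Other loci overlap 3 of the genes on the opposite strand, and whether counting used strand is not given in the sources used here. Actc1 lies inside the span of the locus of A530058N18Rik and C130080G10Rik (chr2:113839303-113915632), which had 24807.7 ± 1897.76 normalised counts (SD, n = 4), or 1.79% of Actc1, and shared 0 exon bases with it. A locus at chr9:66896922-66908715 shared 99 exon bases with Tpm1 and had 146 ± 21.4 counts. The locus of Ccdc63 (chr5:122558065-122588071) shared 60 exon bases with Myl2 models and had 162 (3RL), 70.6 (7LR), 53.4 (8R) and 114 (12RL) counts, a mean of 0.0102% of Myl2. Reads of these neighbours and of the genes cannot be told apart where exons overlap.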

How the data were processed

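The submitters' processing notes list DESeq, HTSeq 0.5.4p2, Cufflinks 2.0.2 and TopHat2 2.0.5 and the build mm9. For the role of each tool, the strandedness and the counting mode, nothing is given in the sources used here. The authors deposited 1 signal value for each of 35299 loci in each library, namely its reads over a size factor, and a file of exon positions with other fields of the transcript models, pooled over the series. Every value was a whole multiple of 1 step within 0.001 (100% of loci), so whole reads were recovered, from 108345923 to 160670654 per library. PCR duplicates cannot be seen, so counting errors cover counting only.

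Models carry UCSC identifiers without symbols. Names were given where the ordered exon and intron lengths of a model of 3 or more exons equalled those of a GENCODE M21 transcript of 1 gene on the same chromosome and strand. Of 55865 such models 38181 matched, which named 17475 loci, 3.21% of them with more than 1 name. All 4 gene symbols are in the RefSeq table (GRCm38.p6), from which the promoters come. Other sequences are from the GRCm38 genome, and no coordinate was converted between builds.

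All 4 libraries are in the group Sham, so no conditions were compared. Levels are means with SD. Likeness is the SD over libraries of log2(value + 1) ratios, pairs per kb were tested by exact two-sided sign-flip tests with Benjamini-Hochberg adjustment over 6 pairs, and spread was set beside the 500 other loci nearest in rank of mean. The genes named are the 4 loci, the 5 loci nearest to each in profile, the loci overlapping them and a list of 25 filament genes. Motifs were searched in 250 bases before each start. The members and lists were chosen with earlier results of these data known. Alternatives were TMM (edgeR 4.0.16, R 4.3.3), median of ratios, equal totals, other lengths, windows, pseudocounts and minimum means, and leaving out each library. Dixon's ratio, the recovery of reads, the search for nearest loci and the CV percentile were tested on simulated data. Name matching was tested on annotated transcripts with shifted positions, and the other steps had no such test. Python 3.11.15, numpy 2.4.6, pandas 2.3.3, scipy 1.17.1 and matplotlib 3.10.9 were used.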

Additional observations from a re-analysis of the deposited data

Results flagged for a closer look

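At 2 loci related to Myl2, 12RL stood far above the rest by Dixon's ratio. Chance gives such a call in about 1 of 20 groups, and 4.6% of the 14424 loci whose mean reached 50 had one. That rate applies to Myl4, while Myl7, with a mean of 36.2, lies below its minimum mean. Myl7, the atrial regulatory light chain, had 118 normalised counts in 12RL and at most 12.5 in the others. Myl4, the atrial essential light chain, had 460 in 12RL, against 173 in 3RL, 174 in 7LR and 184 in 8R. The third matched atrial marker, Nppa, had 18377.9, 15577.8, 18866 and 18029.3 in 3RL, 7LR, 8R and 12RL and was not higher in 12RL. Whether atrial tissue took part in 12RL was not tested.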

How the results depend on the processing

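The levels of the 4 genes kept within 1 SD under every scaling and with each library left out. Spread and length carried the changes, and their cause beyond the length used was not tested. The CV fell with equal table totals to 5.45% for Tnnt2, 2.91% for Tpm1 and 5.91% for Myl2, and with equal totals off the mitochondrial chromosome to 6.77% for Tnnt2 and 4.36% for Tpm1. With 1 library left out it ran from 6.71% to 12.5% for Tnnt2, from 4.43% to 8.70% for Tpm1 and from 3.23% to 12.8% for Myl2. Among loci of like spliced length, the CV of Myl2 stood at percentile 32.6.

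Per kb, the Tnnt2 locus gave 2472326.4 with the shortest and 1419027.6 with the median UCSC model, 288171 and 87072.7 with the union of UCSC exons and of all exons, and 1043584.2 with its own longest model. Tpm1 gave 931550, 813368, 353613 and 353613 in the same order of the first 4 lengths, and Myl2 gave 113440 with the union of all exons. The log2 order of Actc1 over Tnnt2 turned to -1.32, -0.52 and -0.072 with the shortest, median and own models. Tnnt2 over Tpm1 turned to 1.41, 0.80 and 0.85 with the same models, and Tnnt2 over Myl2 to 0.68 with the shortest. Actc1 over Tpm1 fell from 0.78 with the longest to 0.089 with the shortest. With the union of all exons, Actc1 over Myl2 turned to 3.13 and Tpm1 over Myl2 to 1.64. Counting UCSC models alone left 8 models at Tnnt2 and 1 at Myl2. The share of the 4 genes was 3.84% off the mitochondrial chromosome.

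The SD of log2 ratios with 1 library left out ran from 0.0855 to 0.157 for Actc1 over Myl2, from 0.0386 to 0.0770 for Tnnt2 over Tpm1, from 0.0266 to 0.104 for Tnnt2 over Myl2 and from 0.0548 to 0.107 for Tpm1 over Myl2. No paired comparison of conditions was possible because the series has 1 group. In all, 199 alternative values stayed, 43 moved and 9 turned in direction, 17 of the moved ones being lists of nearest loci. Depth did not limit these genes, which held at least 585858 reads in every library, while the number of libraries limits every exact test to p = 0.13.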
